A study of Mus musculus with 14 samples.

Results

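The cartilage matrix genes described here are 10 genes of the matrix and its control, followed over 12 mammary tumours of Brg1+/- mice: the glycoprotein Comp, the proteoglycan Acan, the link protein Hapln1, the matrilins Matn1, Matn2, Matn3 and Matn4, the leucine-rich protein Chad, the matrix protein Cilp and the transcription factor Sox9. All 10 listed genes were on the array, each through 1 probe, out of 16877 genes that could be tested. They were chosen by name with earlier results of these arrays known, in which Comp had one of the widest spreads, so their own levels are a description with no test.

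Cartilage matrix is built by chondrocytes from a collagen network and from aggregates of aggrecan, the product of Acan, which link protein fastens to hyaluronan. Comp, the matrilins, Chad and Cilp bind collagen fibrils or cells and tie the network together, and Sox9, with Sox5 and Sox6, switches on many of these genes. Several of them are not restricted to cartilage: Comp is also made in tendon, Matn2 in many soft tissues, and Sox9 in epithelia including the mammary gland.

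Every tumour came from a mouse heterozygous for Brg1, which encodes a catalytic subunit of the SWI/SNF chromatin remodelling complex. The samples hold no Brg1 wild-type tumour and no normal mammary gland, so the comparison the design allows is of the tumours with each other. Each tumour's label begins with the word MIXED, which the labels do not explain, and they name no strain, age, sex or histology. Tumour RNA was labelled in Cy5 and hybridised with a common mouse reference RNA in Cy3. Each value is the log2 ratio of tumour over reference, so a value above 0 means more of the RNA in the tumour than in the reference. Such a ratio does not say how abundant a gene is beside another gene, and in a whole tumour fewer cells of a type and less RNA per cell cannot be told apart.

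T172 and T284 were hybridised on a second array, which their labels call a biological repeat, whereas 10 tumours were measured once. Tumour values of T172 and T284 are the means of both arrays. The arrays held values for 22501 to 22566 of 22575 probes. Of the cartilage genes, 9 had a value on all 14 arrays, and Hapln1 had none in T176 and T55.

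T176 stood apart from the other tumours in its cell type markers. Its 5 luminal epithelial markers lay between -4.58 and -3.53, with a mean of -4.11, and the next lowest mean was 0.58 in T2023. Krt18 and Epcam, a keratin and an adhesion gene of mammary epithelium, were above the reference in each of the other 11 tumours. The other luminal markers did not all separate T176: Krt8 was above the reference in 10 of the 12 tumours, Cdh1 in 9 and Krt19 in 5. Krt19 was -3.66 in T284, within the T176 range, and -3.43 in T172. All 5 measured osteoblast markers, out of 6 listed, were above the reference in T176, with a mean of 3.25, and no other tumour had an osteoblast mean above -1.28. Results that rest on T176 are given with and without it.

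Comp and Chad were both high in T172, T284 and T646, Chad also in T176, while Acan and Hapln1, the parts of the aggrecan aggregate, were below the reference in every tumour measured. Cilp was highest in T646 and T221 and lowest in T176. Matn2 was highest in T135, T176 and T2023, and Matn4 was above the reference in T135 alone. Sox9 was above the reference in T2023 and T221 alone, and both were low or intermediate tumours for Comp. Matn1 and Matn3 lay below the reference in all 12 tumours and varied little. The mean over tumours was below the reference for 8 of the 10 genes, beside 8257 of all 16877 genes.

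**Figure D1:**
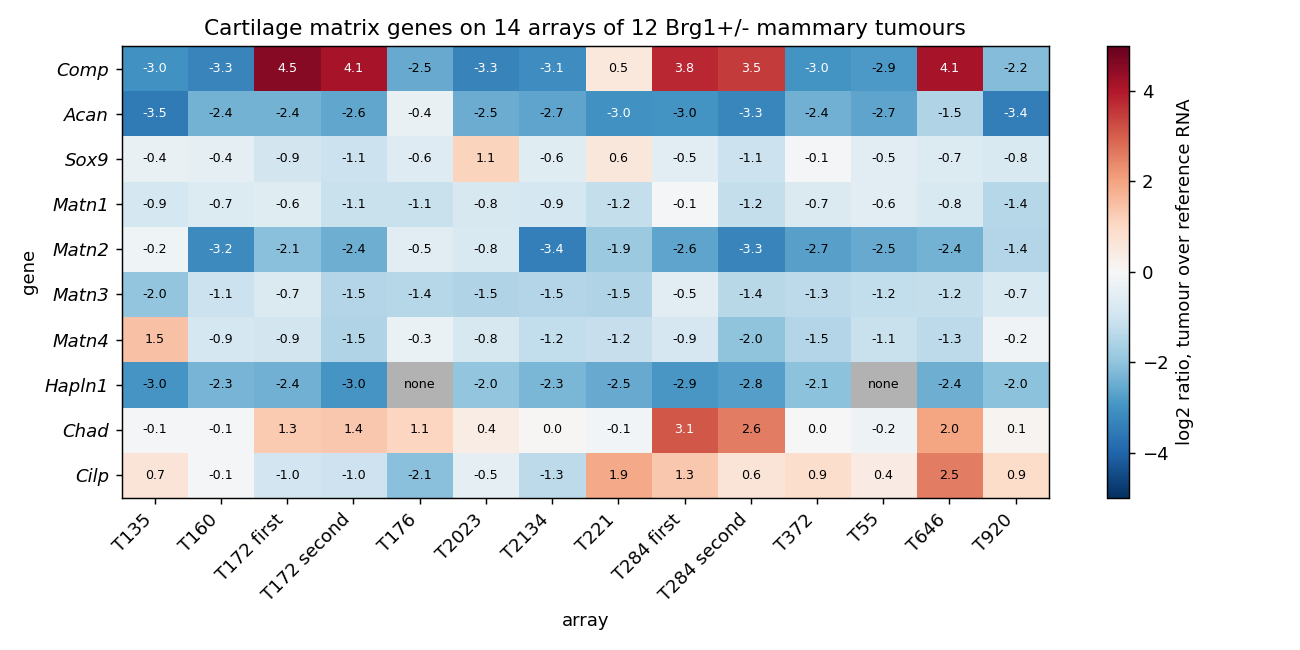
Log2 ratio of tumour over reference RNA for the 10 genes (rows) on each of the 14 arrays (columns), with both arrays of T172 and T284 shown apart; red is above the reference, blue below, and grey marks a missing value. The Comp row runs from -3.34 in T2023 to 4.53 on the first T172 array, and the Acan and Hapln1 rows are blue throughout.

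The sequences shown with the results are promoter windows, given for Chad and Col9a2, which were high in the same tumours, and for Acan, which was not. RefSeq promoter windows were at hand for 7 of the 10 genes. Each window is the 250 bases before the annotated start on the gene's strand, in build GRCm38.p6, and capitals mark TATAAA, the TATA-box motif, where a search of that strand found it. The Chad window is chr11:94564797-94565046 on the plus strand, the Col9a2 window chr4:121039316-121039565 on the plus strand, and the Acan window chr7:79052976-79053225 on the plus strand.
Chad: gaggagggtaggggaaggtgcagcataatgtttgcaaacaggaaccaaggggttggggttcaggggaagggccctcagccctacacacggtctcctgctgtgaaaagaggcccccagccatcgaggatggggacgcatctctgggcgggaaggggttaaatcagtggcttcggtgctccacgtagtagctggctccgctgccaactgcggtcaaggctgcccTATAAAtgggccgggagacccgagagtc
Col9a2: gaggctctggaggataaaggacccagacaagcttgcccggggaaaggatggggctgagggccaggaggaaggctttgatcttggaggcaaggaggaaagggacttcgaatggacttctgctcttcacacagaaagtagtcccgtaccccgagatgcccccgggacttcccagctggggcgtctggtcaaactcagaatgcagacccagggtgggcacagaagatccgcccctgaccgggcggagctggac
Acan: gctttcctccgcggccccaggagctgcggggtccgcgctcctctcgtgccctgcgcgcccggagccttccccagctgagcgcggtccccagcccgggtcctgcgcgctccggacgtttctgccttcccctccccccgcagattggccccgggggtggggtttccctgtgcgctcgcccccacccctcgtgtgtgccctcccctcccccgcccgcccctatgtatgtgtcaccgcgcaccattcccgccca
The Chad window holds TATAAA with its first base at position -28, counting the base before the start as -1, and the Col9a2 and Acan windows do not hold it. TATAAA was present on the gene's strand in 7.59% of all 32851 promoter windows of this length. GC content was 60.4% in the Chad window, 60.4% in the Col9a2 window and 74.4% in the Acan window, beside a median of 52.4% over all windows. Motifs to which Sox proteins can bind were searched on both strands. The first was ACAAAG. The second was ACAAT. The third was the longer form AACAAT, so each of its matches is also a match of the second. None of the 3 windows printed held any of these. Over the 8 windows of the 7 genes, ACAAAG was found in 0, ACAAT in 1 (Hapln1) and the longer form in 0, and the shares over all windows were 16.5%, 27.7% and 9.42% in that order.

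Comp encodes a pentameric thrombospondin that holds collagen fibrils together. Its log2 ratio was 4.33 in T172, 4.13 in T646 and 3.63 in T284, then 0.52 in T221. The other 8 tumours lay between -3.34 in T2023 and -2.16 in T920. The tumours are therefore described as a high group of 3, T221 in between, and a low group of 8, groups cut from the Comp values themselves. In linear terms Comp was 20.1-fold above the reference in T172 and 10.1-fold below it in T2023, and its standard deviation (SD) over tumours, 3.15, ranked 4 of 16877 genes.

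The second arrays measure how far an order of tumours can be read. The arrays of T172 gave 4.53 and 4.12 for Comp and those of T284 gave 3.77 and 3.50. The larger of these differences was 0.41, and 3 of the 11 gaps between neighbouring tumours exceeded it. Those were the gaps between T646 and T284, between T284 and T221 (3.11) and between T221 and T920. Within the 8 low tumours no neighbours were separated, nor were T172 and T646. The ends of the low group, T920 at -2.16 and T2023 at -3.34, lay farther apart than 0.41. Without T646 the SD was 2.85.

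Markers of tissues that also make Comp were read beside it. The tendon markers (Scx, Tnmd, Mkx and Tnxb) had means of -2.63 in T172, -2.78 in T284 and -2.43 in T646, within a range of -3.10 to -1.73 over all tumours. Tnmd, the defining tendon gene, was at or below -5.05 in all 12 tumours. In those 3 tumours Scx was -3.52, -3.86 and -2.01 and Tnxb was -3.09, -2.71 and -2.91. Mkx went the other way, at 1.85, 1.51 and 0.72, and was highest of all tumours in T172. The fibroblast means were -3.15, -3.13 and -1.53. The basal and myoepithelial means were -3.44, -3.16 and -2.80, the lowest 3 of the 12, with 0 of 6 markers above the reference in each. The part of cell makeup in the Comp pattern was not tested.

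Chad encodes a small leucine-rich protein that binds collagen and integrins. Its log2 ratio was 2.83 in T284, 1.99 in T646 and 1.32 in T172, with array values of 3.10 and 2.57 in T284 and 1.29 and 1.35 in T172. T176 followed at 1.06, and the other 8 tumours lay between -0.24 and 0.38. The gap between T172 and T176 was smaller than the array difference of 0.54, so the third place is not settled. After quantile normalization T176 was at 1.24 and T172 at 1.23. Chad was 7.13-fold above the reference in T284.

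Cilp, a matrix protein of the middle cartilage layer that is also made in other connective tissues, had another order. It was 2.55 in T646 and 1.89 in T221, then 1.35 and 0.65 on the arrays of T284, and T172, among the 3 tumours high for Comp, was at -0.99. The lowest values were -1.32 in T2134 and -2.08 in T176. The median over the 12 tumours was 0.54. The gap between T221 and T284 (0.89) and the gap between T2134 and T176 exceeded the larger array difference of 0.70, and the other 9 gaps did not. Of tumour means of fibroblast markers, T176 had the highest, 0.15 with 4 of 7 markers above the reference, while Cilp was lowest there. The next highest fibroblast means were -1.24 in T372, -1.30 in T221, -1.53 in T646 and -1.79 in T135. Cilp was above the reference in each of these, and highest in T646 and T221. Cilp was also above the reference in T55, T284 and T920, with lower fibroblast means of -2.74, -3.13 and -3.34. In T2023, T172, T160 and T2134, with fibroblast means between -3.76 and -2.88, Cilp was below the reference. T221 had the highest adipocyte mean, -1.46, with 0 of 4 markers above the reference, and the part of either list in the Cilp pattern was not tested.

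Acan encodes aggrecan, whose chondroitin sulphate chains hold water in cartilage. It ran from -3.53 in T135 to -0.39 in T176, with a median of -2.57, and T646 came second at -1.50. Both were clear of the other 10 tumours, which reached no higher than -2.38. The arrays of T172 gave -2.37 and -2.58 and those of T284 gave -2.98 and -3.26, so the larger array difference was 0.28. T172 and T284, high for Comp and Chad, were therefore not high for Acan. Without T176 the SD over tumours was 0.57 in place of 0.86.

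Hapln1 encodes the link protein that clamps aggrecan to hyaluronan. It was measured in 10 tumours and lay between -2.96 in T135 and -1.99 in T2023, with a mean of -2.41 ± 0.34 (SD, n = 10). None of the 9 gaps between neighbours exceeded the larger array difference of 0.53. T176, the highest tumour for Acan, has no Hapln1 value, so the pair cannot be compared there.

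The matrilins are adaptor proteins that connect collagen fibrils with aggrecan and with Comp. Matn2 lay at -0.23 in T135, -0.54 in T176 and -0.76 in T2023, then at -1.45 in T920 and -1.86 in T221. The other 7 tumours ran from -2.27 in T172 to -3.44 in T2134, which is 10.8-fold below the reference. The gap between T2023 and T920, 0.69, was the one gap larger than the array difference of 0.67. T135 and T2023 also had the highest basal and myoepithelial means, 0.25 and 0.39, with 3 of 6 markers above the reference in each. That count was also 3 of 6 in T221 and T372, with means of 0.08 and -0.75, where Matn2 was -1.86 and -2.72. T176 had a basal and myoepithelial mean of -2.28, and the part of those markers in the Matn2 pattern was not tested.

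Matn4 was 1.47 in T135, 2.77-fold above the reference, and the other 11 tumours lay between -1.46 in T372 and -0.16 in T920. The step below T135, 1.63, exceeded the array difference of 1.15, and no other gap did. Matn1 had a mean of -0.88 ± 0.25 and Matn3 a mean of -1.29 ± 0.32 (SD, n = 12). For Matn1 the array difference of 1.10 was larger than the whole range over tumours, and for Matn3 it was 0.85 beside a range of 1.24. No neighbours of either gene, the cartilage-typical matrilins, were separated. For Matn1 no order of tumours can be read. For Matn3 the ends, T920 at -0.75 and T135 at -1.99, lay farther apart than the array difference.

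Sox9, the master transcription factor of chondrocytes, was 1.13 in T2023 and 0.57 in T221, and the other 10 tumours lay between -0.99 in T172 and -0.05 in T372. The gap between T221 and T372, 0.62, exceeded the array difference of 0.56. The 3 tumours with high Comp had Sox9 values of -0.99, -0.67 and -0.81. Sox9 was thus below the reference where Comp was highest. Over the 12 tumours Pearson's r between the genes was -0.36 and Spearman's rho -0.69.

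**Figure D2:**
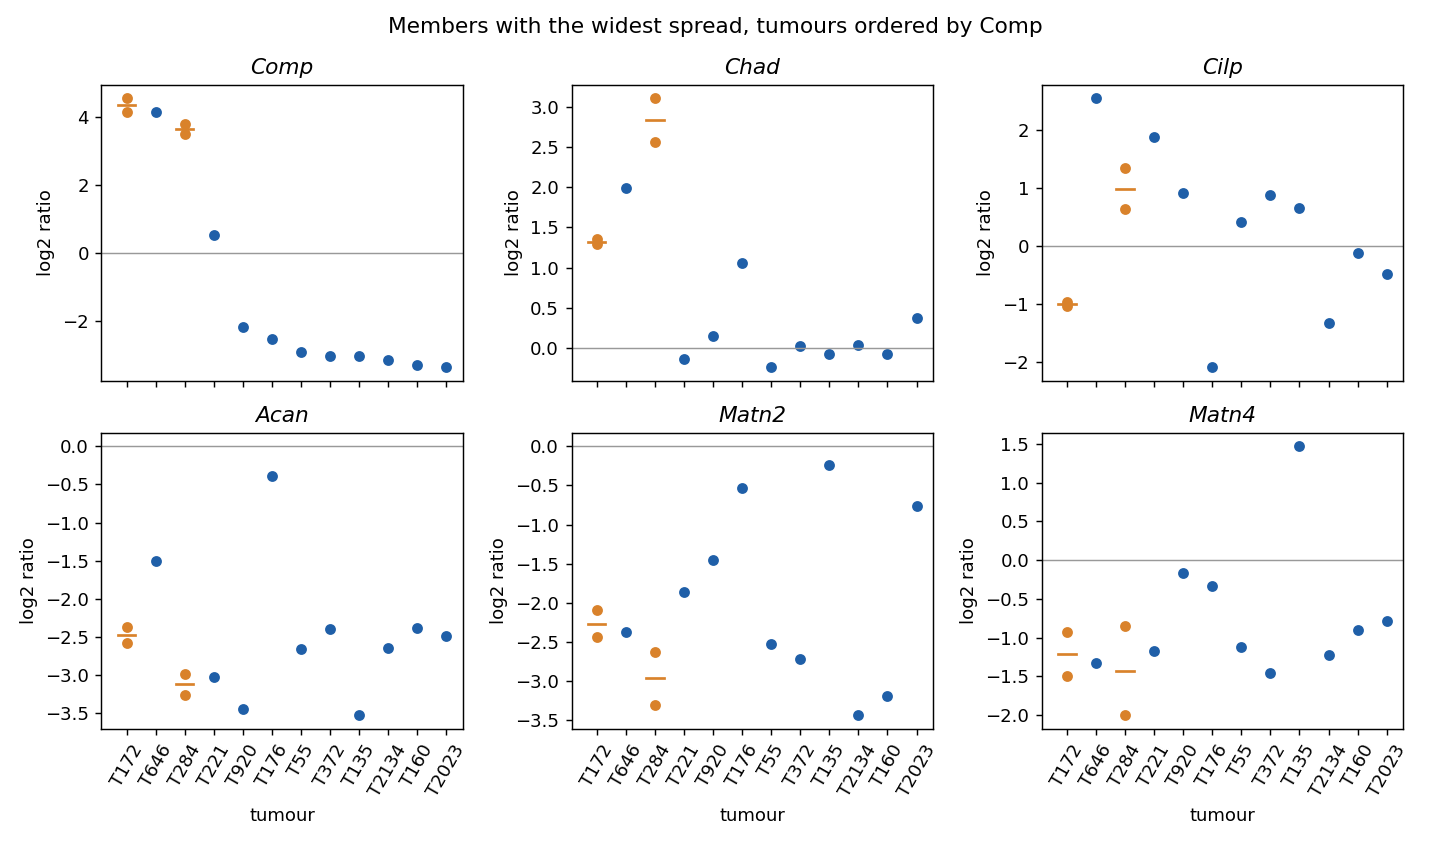
Log2 ratio of tumour over reference (y axes, each panel with its own scale) for the 6 genes with the largest SD over tumours, with the tumours on the x axis in the order of Comp; blue points are single arrays, orange points both arrays of a tumour with their mean as a bar, and the grey line is the reference. Comp and Chad are high in T172, T646 and T284 at the left, whereas Acan is highest in T176 and Matn4 in T135.

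**Figure D3:**
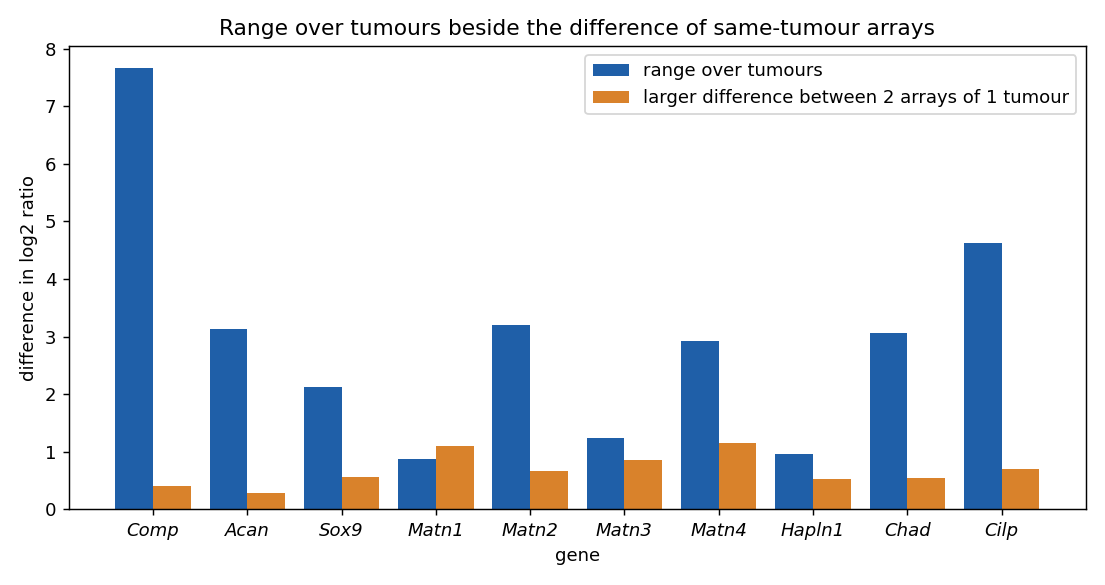
Range of the log2 ratio over tumours (blue bars) beside the larger of the differences between the arrays of T172 and of T284 (orange bars) for each gene, both in log2 units. The range of Comp is 18.7 times its array difference, and for Matn1 the orange bar is the taller.

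The second arrays also differed from the first in a direction. In T172 the second array was lower for 9 of 10 cartilage genes, with a median difference of -0.37, and in T284 likewise for 9 of 10, with a median of -0.61. Over all genes 53% were lower in T172 and 55% in T284, with medians of -0.03 and -0.06. Of 49 other cartilage genes, the wider list described below, 57.1% and 59.2% were lower, with medians of -0.09 and -0.19. Lower on both second arrays were 8 of the 10 genes, beside 34.4% of all 16769 genes with values on those arrays and 41.9% of the 3713 genes with a mean ratio under -0.5. After quantile normalization the counts were 7 of 10 and 9 of 10, with medians of -0.11 and -0.53. What the second arrays share is not given in the labels, and a cause was not tested.

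Agreement between the cartilage genes over the 12 tumours was limited. Of their 45 pairs, 19 had a Pearson's r above 0, and the median r was -0.09, between -0.53 at the lowest and 0.80 at the highest. Comp and Chad had the highest, r = 0.80 (rho 0.48), which rests on T172, T284 and T646: over the other 9 tumours r was -0.13. Matn2 and Matn4 came next at r = 0.75 (rho 0.71), and 0.57 without T176 and T135. The lowest were Matn3 with Matn4 at -0.53, Matn2 with Matn3 at -0.50, and Comp with Hapln1 at -0.50 over 10 tumours. These values are descriptions over tumours that share 1 reference RNA.

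The genes most like a cartilage gene were sought among 1324 other genes with an SD of at least 1 and values in all 12 tumours. For Comp they were Tmem37 (r = 0.960, rho 0.72), Meltf, which encodes melanotransferrin (r = 0.948, rho 0.83), and the tetraspanin gene Tspan8 (r = 0.929, rho 0.64). Tspan8 lay at 2.08 to 2.52 in T172, T284 and T646 and at -2.92 to -0.88 in the other 9. Within those 9 tumours r with Comp was 0.76 for Tmem37, 0.58 for Meltf and 0.33 for Tspan8.

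For Matn2 the most similar genes were the glucose transporter gene Slc2a4 (r = 0.859), the growth factor gene Pdgfa (r = 0.856) and the transcriptional inhibitor Id4 (r = 0.819). For Cilp they were the carboxypeptidase-like gene Cpxm2 (r = 0.894), the chemokine Ccl8 (r = 0.886) and the lymphotoxin gene Ltb (r = 0.882). Matn2 had an SD of 1.07, just inside the limit of 1 set for this search, and Chad with 0.99 was just outside. For genes outside it, named after their values were seen, Acan was most like Frzb (r = 0.919, and 0.59 without T646 and T176), Chad most like the nestin gene Nes (r = 0.921), and Sox9 most like 2310050C09Rik (r = 0.962) and the cornified envelope genes Lce1a2 (r = 0.959) and Lce1c (r = 0.951).

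Differences between tumours were tested with limma's moderated F-test over all genes, in which only the repeat arrays, those of T172 and of T284, tell the spread within a tumour. At a Benjamini-Hochberg adjusted p under 0.05 it called 3104 of 16877 genes, or 18.4%. Of the cartilage genes, 5 of 10 were called (Comp, Acan, Matn2, Chad and Cilp), a count from which nothing is read because the genes were chosen on these arrays. The 49 measured genes of a wider list of 56, grouped by role, were not used in that choice. They too were listed with earlier results of these arrays known, so their shares beside all genes are a description. Of the 49 genes, 23 (46.9%) were called. An SD over tumours of at least 1 was reached by 16 of the 49 (32.7%), beside 7.93% of all genes, and the median SD was 0.626 beside 0.386. Without T176 the count was 11 (22.4%) beside 6.2% of all genes, with Col9a3, Col11a2, Pth1r, Frzb and Fmod lost, and the median SD was 0.418 beside 0.374.

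Cartilage collagens were called in 6 of 7 measured genes, all but Col10a1, the collagen of hypertrophic chondrocytes. Col2a1, the main collagen of cartilage, was below the reference in every tumour, from -4.61 in T2023 to -1.38 in T221 (F-test adjusted p = 0.00307). Among the tumours with high Comp it was -4.12 in T172 and -4.11 in T284, but -1.98 in T646, where only T221 and T372 (-1.53) were higher. Col9a2, a chain of the collagen that coats the Col2a1 fibril, was 3.35 in T284, 2.87 in T646 and 2.53 in T172, and 1.65 at most in the other 9 tumours (adjusted p = 0.00027).

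Col9a1 was 2.97 in T284, 2.56 in T172 and 1.67 in T646, but T920, T55 and T2134, low for Comp, reached 2.09, 1.92 and 1.72 (adjusted p = 0.000315). Col11a1, a chain of the fibril core, was 1.70 in T176, 1.68 in T284 and 1.41 in T172, and the other 9 tumours were below the reference, T646 at -0.85 (adjusted p = 0.000132). Col9a3 was highest in T135 at 1.70, and lowest in T176 at -3.42 (adjusted p = 0.00155). The chains of collagen IX therefore did not share one order of tumours.

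Of the 7 measured genes listed with the chondrocyte transcription factors, 2 (28.6%) were called, beside 18.4% of all genes. They were Sox5 and Wwp2, the latter not a transcription factor. Sox5, a partner of Sox9, was 1.94 in T172, 1.36 in T646 and 1.30 in T284, and lay between -2.70 and 0.48 in the other 9 tumours (adjusted p = 0.00075). Wwp2, a ubiquitin ligase gene that hosts a cartilage microRNA, had an adjusted p of 0.0487. It was not called without T176 (0.0826), T2023 (0.0605), T2134 (0.0586) or the first T284 array (0.0838), or with 1 probe per gene (0.0542). The same 3 highest tumours as for Comp were found for Chad, Col9a2, Sox5 and Hapln3. These are 1 of the 8 other cartilage genes measured in all 12 tumours, and 3 of the 49 wider genes (6.12%), beside 349 of 16570 genes (2.11%). This count was chosen after the values were seen. Hapln3 was not called (adjusted p = 0.778), and the gap between those 3 tumours and the next, 0.18, was smaller than its array difference of 0.29. After quantile normalization the counts were 0 of 8, Chad being lost to T176, then 3 of 49, and 306 of 16570 genes (1.85%).

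Small secreted products were called in 3 of 6 genes. Scrg1, a product of differentiating chondrocytes, was 3.10 in T284 and 1.72 in T172, but 0.32 in T646 (adjusted p = 0.000466). Snorc, a cartilage proteoglycan, was 3.35 in T135 and 2.42 in T920, and 0.53 in T172 (adjusted p = 0.000479). Mia was the third, at an adjusted p of 0.0304 with T135 and 0.0702 without it. Sox10 and S100b, the 2 measured of 4 Schwann cell markers, had means of 2.61 in T172, 3.22 in T284 and 0.76 in T646. In T646 the markers went opposite ways, Sox10 at 2.92 and S100b at -1.39. Sox10 was above the reference in 11 of the 12 tumours. The exception was T176 at -0.45, where Krt18 and Epcam were also lowest. The mean of the 2 markers is therefore not read as Schwann cell content. In T135 Sox10 was 2.46, where Scrg1 was lowest at -2.46. The part of these markers in the Scrg1 pattern was not tested.

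Signals of the growth plate and joint were called in 2 of 7 genes, Pth1r and Frzb. Pth1r, the receptor for parathyroid hormone-related peptide, was 3.20 in T176 and no higher than -1.89 elsewhere (adjusted p = 0.00461). Frzb, a secreted Wnt inhibitor, was 3.07 in T176 and -0.03 at most elsewhere (adjusted p = 0.00118). Without T176 neither was called, with adjusted p-values of 0.979 and 0.0856.

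Other proteoglycans and link proteins were called in 3 of 9 genes, Vcan, Bcan and Fmod. Vcan was not called without the second T284 array (adjusted p = 0.0554), nor Bcan without T176 (0.91). Fmod, which binds collagen fibrils, was 4.12 in T176 and no higher than -1.01 elsewhere (adjusted p = 0.000919, and 0.122 without T176). Genes for matrix breakdown were called in 3 of 3. Mmp13, a collagenase of cartilage and bone, ran from -3.74 in T172 and -3.70 in T284 to 2.02 in T646 and 4.51 in T176 (adjusted p = 0.000182). Adamts4 and Adamts5, the aggrecanases, had adjusted p-values of 0.00203 and 0.00581. T646 therefore stood on the other side of the reference from T172 and T284 for Mmp13, although all 3 were high for Comp.

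The thrombospondins and Cilp2 were called in 2 of 4 genes, Thbs2 and Thbs3. Thbs3 passed narrowly (adjusted p = 0.0478) and was not called after quantile normalization (0.122), with 1 probe per gene (0.0529), or without T221 (0.0849), T372 (0.0951) or T646 (0.0528). Thbs2 was highest in T221 at 1.14 and T646 at 0.56 (F-test adjusted p = 0.000543). In T172 and T284 it was -3.03 and -2.58, so Thbs2, a relative of Comp, did not follow it. Over the 12 tumours r with Comp was 0.04 for Thbs2, -0.08 for Thbs3 and 0.59 for Thbs4 (rho 0.62). Thbs4 was not called (F-test adjusted p = 0.0857), and its highest tumours were T372 at -1.08 and T221 at -1.36. Chondroitin sulphate synthesis and sulphate supply had 2 of 6 called, Csgalnact1 and Slc26a2. Slc26a2 had an adjusted p of 0.0481 and was not called without T176 (0.0567), T221 (0.0957), T920 (0.0528) or the second T284 array (0.08), or with 1 probe per gene (0.0538). Csgalnact1, which starts the chain, was 1.22 in T646 and -2.85 in T284 (adjusted p = 0.00439).

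**Figure D4:**
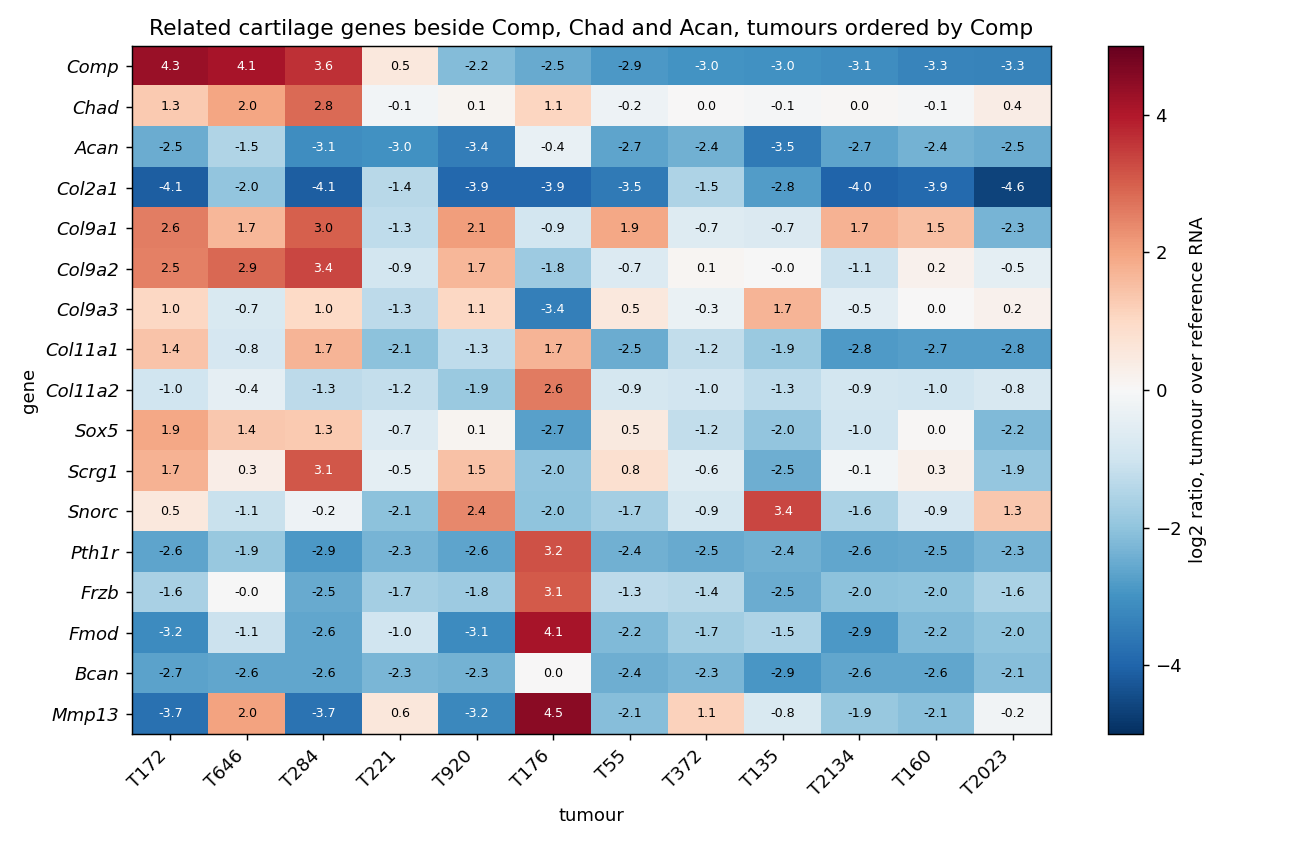
Log2 ratio of tumour over reference for Comp, Chad and Acan and for 14 genes of the wider cartilage list (rows), with the 12 tumours in the order of Comp (columns); red is above the reference and blue below. Col9a2 and Sox5 are red in the 3 left columns as Comp is, and Pth1r, Frzb, Fmod and Col11a2 are red in T176 alone.

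Each tumour was also compared with the mean of the other 11, with limma and adjustment over all genes, the lone tumour being assumed to vary as the others do. In T176, 6 of the 49 wider genes were called higher (12.2%), beside 2.48% of all genes. They were Fmod by 6.27 ± 0.72 (log2 difference ± SE, adjusted p = 0.00024), Pth1r by 5.66 ± 0.29 (adjusted p = 6.5e-07), Frzb by 4.76 ± 0.65 (adjusted p = 0.000789), Col11a2 by 3.67 ± 0.37 (adjusted p = 7.83e-05), Bcan and Sox6. Col9a3 alone was called lower, by -3.67 ± 0.86 (adjusted p = 0.0306), beside 1.34% of all genes. T176 is also the tumour with all measured osteoblast markers above the reference, and Acan, not tested here, was highest in it.

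In the other 11 tumours limma called 0 of 539 such tests, beside 0.0831% over all genes. An unadjusted p under 0.05 was found in 25 of the 539. The share over all genes at that limit is not given here, so nothing is read from this count. T172, T284 and T646 share high values of Comp, Chad, Col9a2 and Sox5, so a comparison of 1 tumour with 11 includes high tumours in the rest. With T176 left out, the F-test called 16 of the 49 wider genes in place of 23, beside 2520 of 16877 genes (14.9%) in place of 3104. Those lost were Fmod, Pth1r, Frzb, Col11a2, Wwp2, Bcan and Slc26a2, and the collagens Col2a1, Col9a1, Col9a2, Col9a3 and Col11a1 were called with and without it. The skeletal muscle markers had means of -4.81 to -1.89 over the tumours.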

How the data were processed

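The values deposited by the authors are 1 number per probe and array on a log2 scale, read as tumour (Cy5) over reference (Cy3), the dyes being given per the labels. Base 2 was inferred from the range, -9.19 to 7.42. Array medians lay between 0 and 0.018, so the values look centred per array. RNA was extracted with a Qiagen RNeasy kit, per the labels. The scanner and the steps before deposit (background, normalization, filters): not given in the sources used here. All arrays share 1 dye orientation, so a dye effect is part of each ratio and cancels between tumours. The ratios carry no signal levels, so weak probes were not filtered. Only the number of arrays limits the stated precision, and 0.172% of values were missing.

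Probes were named through the platform annotation: 18658 had 1 gene symbol, 30 several and 3887 none, and symbols were updated by Entrez identifier (18445) or accession (24) or kept (189). Probes of a gene were averaged, a gene needing values on at least 12 arrays. The tests used limma 3.58.1 in R 4.3.3 (prior SD 0.313 on 7.27 degrees of freedom), and were tested on simulated data. Python 3.11.15 made the summaries. Beside the F-test, each tumour was compared with the other 11 after averaging duplicate arrays. The F-test p-values set differences between tumours against the spread between the repeat arrays of T172 and of T284. Those of 1 tumour against 11 use the spread among the other 11 tumours. Differences between these samples may be technical.

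The cartilage genes, the wider list and the marker lists (luminal, basal and myoepithelial, fibroblast, tendon, osteoblast, skeletal muscle, Schwann cell, adipocyte) were chosen with earlier results of these data known. Named are the 10 genes, the 10 called wider genes with the largest SD, the 3 most similar genes for each cartilage gene with an SD of at least 1, and markers. Other genes were named after their values were seen. Alternatives were quantile normalization, 1 probe per gene, complete genes, a robust prior, adjusted p under 0.01, leaving out each array and a replicate block for the second arrays. Promoter windows are from RefSeq.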

Additional observations from a re-analysis of the deposited data

How the results depend on the processing

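The F-test called 3104 genes as analysed, 1590 at an adjusted p under 0.01, and 7214 with the second arrays of T172 and T284 as a replicate block. The block rests on 2 pairs of arrays, whose labels do not say that they share a day or batch. Of the 49 wider cartilage genes, 23 were called as analysed, beside 3104 of all genes. The counts were 27 beside 7214 with the replicate block, and 17 beside 1590 at an adjusted p under 0.01. The block called many more of all genes, so its 27 is not read as a stronger result than 23. Of the tests of 1 tumour against the other 11, the wider cartilage genes called were 7, and 0 to 7 when 1 array was left out, the 0 being without T176. Among the recomputed differences of T176 from the other 11 tumours, the only recomputed results with a direction, none changed it. For the called wider genes 28 recomputed adjusted p-values no longer passed, most often those of Wwp2, Thbs3 and Slc26a2. The spread within a tumour was measured in T172 and T284 only, and with 1 array each the other 10 tumours add nothing to it.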
